A study of Mus musculus with 6 samples.

Results

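Myc and the genes of ribosome biogenesis were followed as a set of 40 named genes in RNA sequencing of mouse lung innate lymphoid cells (ILCs), tissue-resident lymphocytes without antigen receptors. The set was matched by gene symbol, and all 40 genes were found among the 52636 genes of the deposited count table. All 40 were among the 15197 genes that passed the low-count filter, and 0 of them passed it only through one of the groups. Myc is a transcription factor that binds DNA together with its partner Max, and ribosome biogenesis is among the best-known processes it drives. In the nucleolus, RNA polymerase I transcribes the ribosomal RNA precursor, small nucleolar ribonucleoproteins (snoRNPs) guide its chemical modification, and large sets of assembly factors fold and cut it into the small and the large ribosomal subunit. In lymphocytes this machinery grows with activation and cell division, and the cap-binding factors that bring messenger RNA to the ribosome are counted with it here.

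Both groups were lung ILCs from wild-type C57BL/6 mice that carry a green fluorescent protein reporter of Il4 (4get). All mice received 500 ng of interleukin-33 into the peritoneal cavity for 4 days and were killed on day 5, so the series holds no untreated cells. The sorted cells were lineage-negative and CD90-positive, and they differed in KLRG1, a surface receptor carried by activated group 2 ILCs: 3 libraries were made from the KLRG1-negative sort and 3 from the KLRG1-positive sort, named KLRG1-high in the sorting protocol. No age is stated for the mice in the sources used here. Nothing in the labels ties the 3 libraries of a sort to different animals. The p-values below therefore describe the spread among these particular libraries, part or all of which may be technical.

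Between 17323004 and 23946073 reads per library were assigned to genes. Klrg1 itself stood at 13.1 to 193 CPM (reads of a gene relative to the scaled total of its library) in the KLRG1-negative libraries and at 1327 to 1786 CPM in the KLRG1-positive libraries, without overlap. The 14 group 2 ILC markers listed included Gata3, Il1rl1 and Klrg1 itself. They summed to 1782 to 4451 CPM in KLRG1-negative and 8247 to 9977 CPM in KLRG1-positive libraries. Since the cells were sorted on KLRG1, part of this difference follows from the sort. Of the 14 genes, 0 were called, and the estimate was higher in KLRG1-positive cells for 13 and lower for 1. Transcripts of other cell types were found in both sorts, with higher mean sums in the KLRG1-negative libraries for the types named here. Markers of natural killer cells and group 1 ILCs summed to 701 to 2151 CPM in KLRG1-negative and 185 to 644 CPM in KLRG1-positive libraries (0 of 9 called). T cell markers summed to 1885 to 7028 CPM against 392 to 502 CPM, with 2 of 11 tested genes called lower in KLRG1-positive cells, B and plasma cell markers to 7767 to 29963 CPM against 2674 to 9096 CPM (0 of 10 called), and fibroblast markers to 3860 to 10794 CPM against 17.7 to 47.6 CPM (5 of 7 called lower). Cd4 was at 0 in 4 of the 6 libraries, and Lum and Pdgfra were each at 0 in 2 of the KLRG1-positive libraries. Their part in the results below was not tested, and in such bulk samples a smaller number of cells of a type and less RNA per cell cannot be told apart.

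The 40 genes showed no difference between the sorts that passed the test. By the quasi-likelihood test of edgeR, with p-values adjusted over all 15197 genes tested and a threshold of 0.05, 0 of 40 were called higher and 0 of 40 lower in KLRG1-positive cells, where 0.125% of all genes tested were called higher and 1.21% lower. At an unadjusted p under 0.05, 0 members were higher and 2 were lower, Ppan and Utp20, or 5% of the set, against backgrounds of 4.19% and 11.5%. DESeq2, as a second tool, called 0 members higher and 1 lower, Ppan, where it called 2.28% of all genes higher and 9.06% lower. With the library number as a block, DESeq2 called 0 higher and 3 lower, Ppan, Gnl3 and Utp20, against 4.01% and 11.2%, and edgeR called 0 and 0, against 0% and 0.349%. At an unadjusted p under 0.05, edgeR with this block had 0 of 40 members higher and 6 of 40 lower. These 6 were Gnl3, Nop56, Utp20, Tsr1, Rrp12 and Ppan. Of all 15197 genes tested, 1025 were higher and 1876 lower by the same measure. The share of members that were lower was thus near that of all genes. The log2 fold changes, given throughout as KLRG1-positive over KLRG1-negative, ran from -1.02 for Utp20 to 0.68 for Rrs1. Of the 40, 18 were positive and 22 negative, and their median was -0.08 beside -0.05 over all genes tested.

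For some members these differences could be limited in size. Of the 40 members, 34 lay above 10 CPM in every library, and 29 had a log2 fold change of less than 0.5 in size. For 15 members the 95% interval of the log2 fold change lay wholly between -1 and 1, that is, within a doubling or halving. For the other 25 the interval reached beyond that size in at least one direction. These intervals come from the fit without the library number as a block. Inside a sort, the highest library exceeded the lowest by a median of 1.58-fold among the KLRG1-negative and 1.73-fold among the KLRG1-positive libraries. The group means differed by a median of 1.2-fold, in whichever direction. Extremes of 3 libraries tend to lie further apart than means do, so these values do not rank the spread against the difference.

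Per kilobase of the deposited gene model, which joins all annotated exons of a gene, the mean levels placed Myc among the highest of the set. In KLRG1-negative cells the order was led by Nhp2 at 65.1, Nop56 at 63.2, Bop1 at 61.1, Myc at 61.0, Wdr43 at 59.4 and Ncl at 53.5 CPM per kilobase. In KLRG1-positive cells these 6 stood at 73.7, 44.3, 65.8, 56.6, 55.0 and 56.7 CPM per kilobase. Neighbours in this order lay well within the spread of their own libraries. At the other end stood Mycn, Fbl and Wdr74, each at or below 2.55 CPM per kilobase in both sorts.

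**Figure D1:**
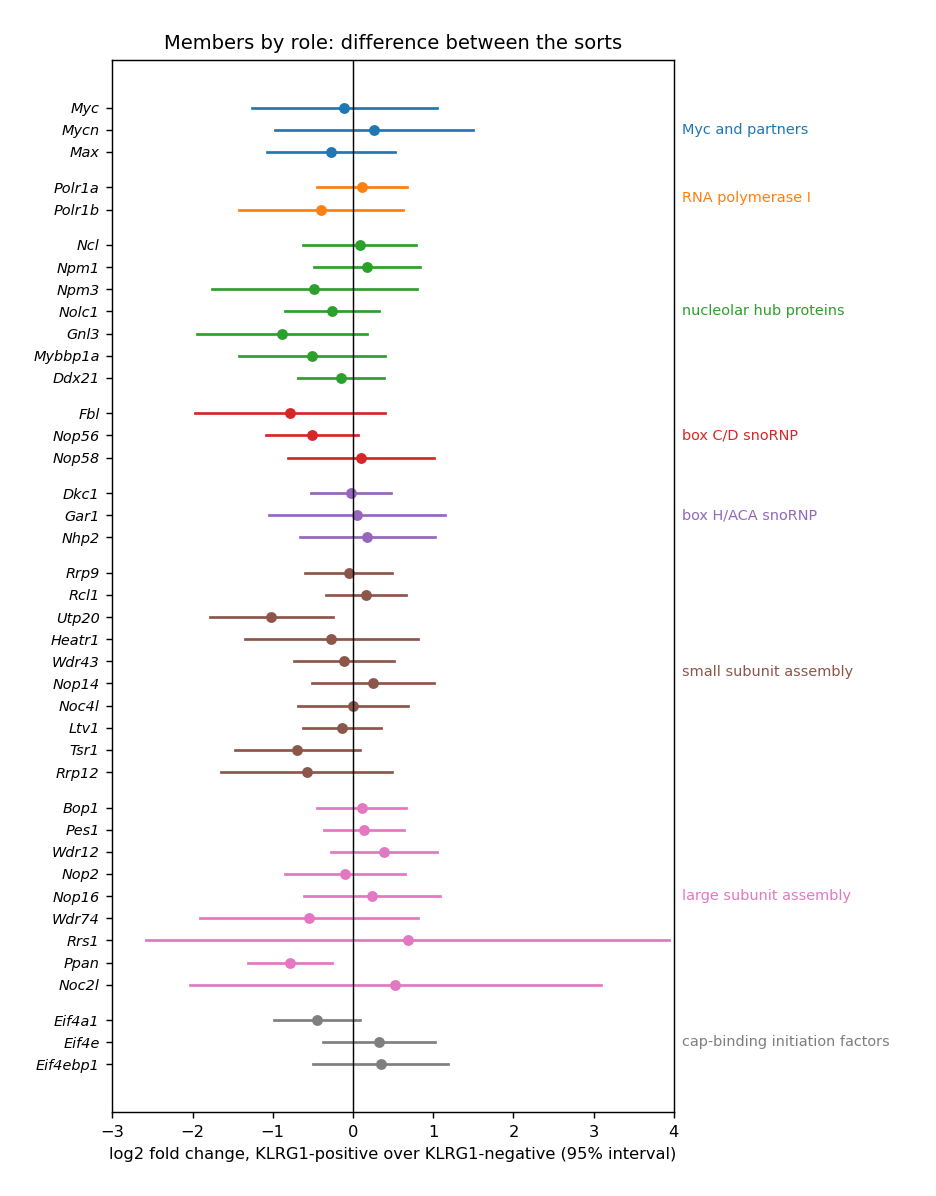
Log2 fold change of each of the 40 genes, KLRG1-positive over KLRG1-negative (x axis), grouped by role; points are edgeR estimates and bars their 95% intervals over 3 libraries per sort. The fit had no block for the library number. Only the intervals of Utp20 and Ppan lie wholly on one side of 0 (p not adjusted), and those of Rrs1 and Noc2l are the widest.

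Myc and Max together recognise the DNA word CACGTG, called the E-box, and many of their best-known targets carry it close to the start of transcription. Promoter windows from 250 bases before to 50 bases after a gene's start were listed in RefSeq (build GRCm38.p6) for 33 of the 40 members, Myc not among them. The letters CACGTG, which read the same on both strands, stood in a window of 10 of those 33 members (30.3%), against 18% of the other ribosome biogenesis genes, 11.5% of the genes tested and 8.1% of all genes listed. The related word CACGCG, searched on both strands, stood in windows of 27.3% of members and 36.0% of the other ribosome biogenesis genes, against 19.1% of the genes tested and 10.5% of all genes listed. A match of one word cannot overlap a match of the other. The stretches below are read along each gene's own strand, with the E-box in capitals. They are those of the 3 members with an E-box and no overlap between the sorts (Utp20, Tsr1 and Eif4a1), of Eif4e, and of Max and Pes1. Eif4e is the member with 2 matches. Both lie in the window of a later start (chr3:138527018-138527317), from which their distances are counted. Its other window (chr3:138525941-138526240) holds none. In Max and Pes1 the match lies nearest to the start.
Utp20, chr10:88826765-88826789, minus strand, first E-box base 37 bases after the start: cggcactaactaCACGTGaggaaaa
Tsr1, chr11:74898092-74898121, plus strand, 24 bases after: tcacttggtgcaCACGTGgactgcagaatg
Eif4a1, chr11:69672595-69672624, minus strand, 189 bases before: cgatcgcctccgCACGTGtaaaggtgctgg
Eif4e, chr3:138527028-138527057, plus strand, 228 bases before: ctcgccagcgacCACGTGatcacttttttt
Eif4e, chr3:138527192-138527221, plus strand, 64 bases before: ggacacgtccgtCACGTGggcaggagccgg
Max, chr12:76962234-76962263, minus strand, 3 bases before: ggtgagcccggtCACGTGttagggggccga
Pes1, chr11:3963965-3963994, plus strand, 2 bases after: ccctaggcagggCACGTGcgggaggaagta

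The other members with an E-box in the window were Nop2, Ltv1, Mybbp1a and Wdr43. Of the 10 members with the word, 8 had a negative log2 fold change and 2, Eif4e and Pes1, a positive one (median -0.21). Of the 23 members with a window and no such word, 11 were negative and 12 positive (median 0.00). Both sets held 0 genes past the test, and the split by motif was made with the values in view, so it is a description of these windows only.

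Myc itself (ENSMUSG00000022346, chr15:61985391-61990374, plus strand, GRCm38) was well detected in both sorts and did not separate them. Its level was 101, 108 and 289 CPM in KLRG1-negative libraries 1, 2 and 3, and 105, 167 and 189 CPM in KLRG1-positive libraries 1, 2 and 3. One KLRG1-negative library held the highest value of the 6, both libraries numbered 1 were near 100, and the groups overlapped over most of their range. The log2 fold change was -0.11 ± 0.47 (SE, edgeR adjusted p = 0.962), with a 95% interval from -1.26 to 1.04. The sign was not stable: without KLRG1-negative library 3 the log2 fold change was 0.57 (edgeR adjusted p = 0.469), without KLRG1-positive library 1 it was 0.12, and with the library number as a block it was 0.03.

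Mycn, the paralog best known from developing tissues, was detected at a level far below Myc. It measured 3.5, 3.98 and 2.74 CPM in the KLRG1-negative and 5.46, 3.85 and 2.97 CPM in the KLRG1-positive libraries, with a log2 fold change of 0.26 ± 0.51 (SE; edgeR adjusted p = 0.890). Per kilobase of gene model, the mean level was 61.0 CPM for Myc and 1.03 CPM for Mycn in KLRG1-negative cells, and 56.6 and 1.24 CPM in KLRG1-positive cells. Max, the shared partner, stood at 49.1, 55.9 and 48.9 CPM in KLRG1-negative libraries and 61.5, 27.3 and 38.5 CPM in KLRG1-positive libraries. The KLRG1-positive libraries lay on both sides of the KLRG1-negative ones, and the log2 fold change was -0.27 ± 0.33 (SE; edgeR adjusted p = 0.800). Without both libraries numbered 2 it was 0.14.

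**Figure D2:**
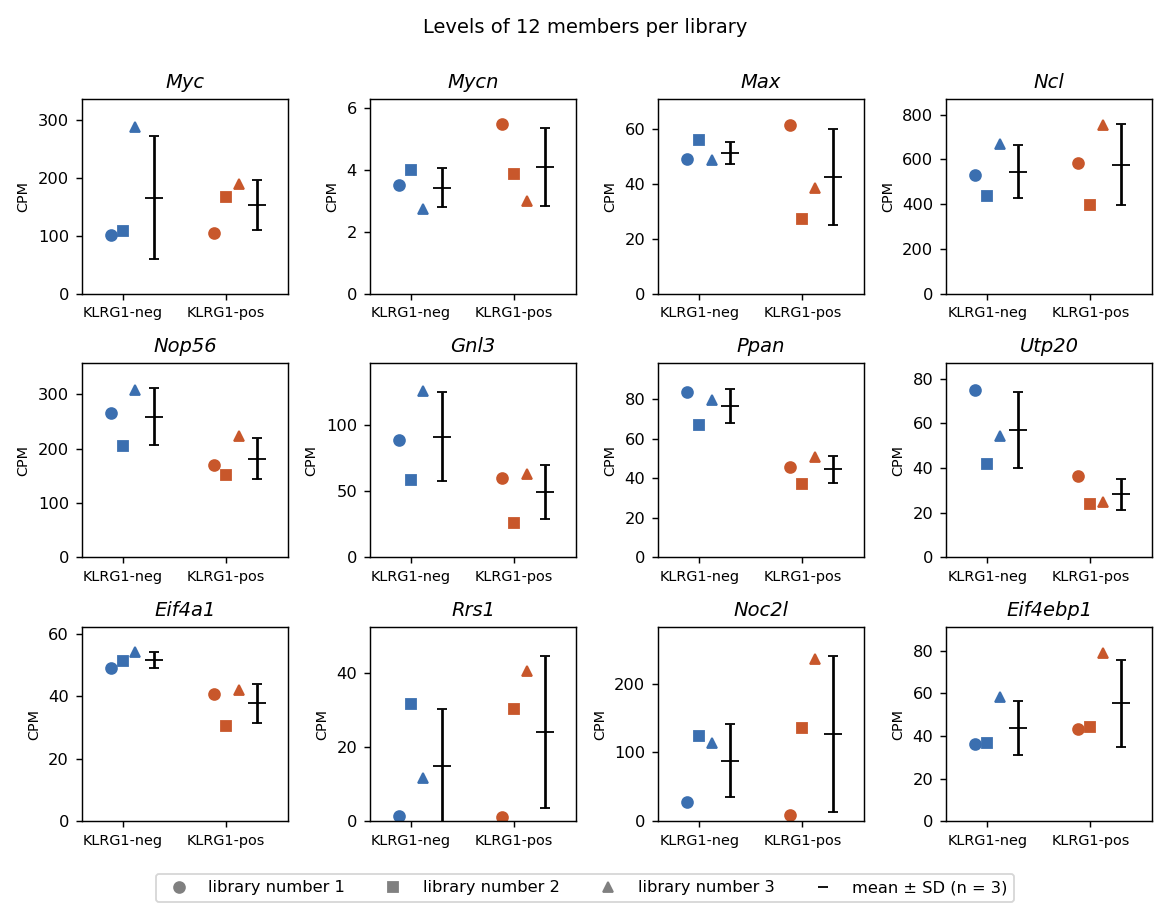
Level of 12 members in each library, in CPM on a linear axis from 0; symbols mark the library number, and the black bar is the mean ± SD of the 3 libraries of a sort. The sorts overlap for Myc, Mycn, Max, Ncl, Nop56 and Gnl3 and are separate for Ppan, Utp20 and Eif4a1. Both libraries numbered 1 are the lowest of their sort for Rrs1 and Noc2l.

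Among the other genes of the Myc network, the 16 listed (Max-binding repressors of the Mxd family, Mnt and Mga, the Mlx branch, and enzymes that tag Myc for breakdown or protect it) included 0 that passed the test, with 9 positive and 7 negative and a median of 0.07. The smallest p belonged to Usp28, an enzyme that removes ubiquitin from Myc. It measured 178, 71.0 and 44.8 CPM in KLRG1-negative and 43.8, 30.9 and 22.6 CPM in KLRG1-positive libraries (log2 fold change -1.59 ± 0.56 SE; edgeR adjusted p = 0.239). For Usp28 every KLRG1-positive library was below every KLRG1-negative one, the closest pair being 44.8 and 43.8 CPM. The adjusted p of Usp28 was 0.0657 by DESeq2, and with the library number as a block 0.123 by edgeR and 0.000469 by DESeq2. Without KLRG1-negative library 1 its log2 fold change was -0.83. Huwe1, a ubiquitin ligase of Myc, came next, with a log2 fold change of -0.46 ± 0.19 (SE; edgeR adjusted p = 0.324).

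RNA polymerase I was represented by its 2 largest subunits, which form the catalytic centre. Polr1a was at 76.9, 77.9 and 75.6 CPM in KLRG1-negative libraries, the tightest spread of any member in that sort, and at 82.8, 104 and 62.6 CPM in KLRG1-positive libraries (log2 fold change 0.12 ± 0.23 SE; edgeR adjusted p = 0.895). Polr1b was at 74.9, 31.5 and 66.7 CPM against 46.3, 27.8 and 56.9 CPM (log2 fold change -0.40 ± 0.42 SE; edgeR adjusted p = 0.758). For Polr1b the library numbered 2 was the lowest of both sorts. Of the 13 other RNA polymerase I genes, 0 passed, with 7 positive and 6 negative. The smallest p-values there were those of Ttf1, the transcription termination factor (log2 fold change -0.58, edgeR adjusted p = 0.449), and Taf1b, a subunit of the promoter selectivity complex (0.39, adjusted p = 0.498).

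Of the 7 proteins that organise the nucleolus, 0 passed the test, 5 had negative log2 fold changes, where 53.5% of all genes tested did, and the median was -0.26. Ncl, encoding nucleolin, had the highest CPM of the 40, with no correction for gene length. It measured 531, 435 and 670 CPM in KLRG1-negative and 583, 394 and 756 CPM in KLRG1-positive libraries (log2 fold change 0.08 ± 0.29 SE; edgeR adjusted p = 0.946). The order of the libraries was the same in both sorts, with number 2 lowest and number 3 highest. Gnl3, encoding the nucleolar GTPase nucleostemin, measured 89.1, 58.9 and 126 CPM against 60.0, 25.8 and 62.9 CPM. Each KLRG1-positive library was below the KLRG1-negative library of its own number, but the groups overlapped, and the log2 fold change of -0.88 ± 0.44 (SE) had an edgeR adjusted p of 0.418. With the library number as a block the estimate was -0.92 ± 0.20 (SE), with an adjusted p of 0.137 by edgeR and 0.00743 by DESeq2.

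Mybbp1a is a nucleolar binding partner of transcription factors. It was at 297, 121 and 294 CPM in KLRG1-negative and 163, 136 and 200 CPM in KLRG1-positive libraries. Its log2 fold change was -0.51 ± 0.37 (SE, edgeR adjusted p = 0.618). KLRG1-negative library 2 lay below all KLRG1-positive libraries, while the other 2 KLRG1-negative libraries lay above them. The remaining 4 were Npm1 (nucleophosmin, a histone and ribosome chaperone), its relative Npm3, Nolc1 (a snoRNP chaperone) and the RNA helicase Ddx21, with log2 fold changes of 0.17, -0.48, -0.26 and -0.15. Npm3 was at 1.87 to 4.61 CPM and was measured with the least precision of these, its interval running from -1.76 to 0.79. Stretches of 50 bases shared with other transcripts, chiefly processed pseudogenes, made up 24.3% of Npm1 and 25.6% of Npm3, so their levels may be understated, since reads with several matches were left out.

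The box C/D snoRNP, which adds methyl groups to the ribose of ribosomal RNA, had 2 of 3 proteins with negative estimates and 0 past the test. Nop56, a scaffold protein of the particle, was at 265, 205 and 308 CPM in KLRG1-negative and 170, 151 and 224 CPM in KLRG1-positive libraries. Every KLRG1-positive library was below its same-numbered counterpart, and the groups overlapped only between KLRG1-positive library 3 and KLRG1-negative library 2. The log2 fold change was -0.51 ± 0.24 (SE; edgeR adjusted p = 0.375). Fbl, the methyltransferase fibrillarin, was counted at 7.40, 9.27 and 15.5 CPM against 4.11, 6.20 and 8.35 CPM (log2 fold change -0.79 ± 0.49 SE; edgeR adjusted p = 0.536). The level of both genes may be understated, since 19.7% of the 50-base stretches of Fbl and 18.6% of those of Nop56 also occur in other transcripts. Nop58, the partner scaffold of Nop56, had a log2 fold change of 0.10 ± 0.37 (SE).

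The box H/ACA snoRNP, which converts uridine to pseudouridine, lay closest to no difference. Dkc1, the pseudouridine synthase dyskerin, was at 207, 154 and 186 CPM in KLRG1-negative and 190, 145 and 203 CPM in KLRG1-positive libraries. The 2 ranges covered nearly the same span, and the log2 fold change of -0.02 ± 0.21 (SE; edgeR adjusted p = 0.982) had a 95% interval from -0.53 to 0.48. Nhp2, a core protein of the particle, was at 70.0, 62.5 and 91.3 CPM against 77.1, 53.1 and 123 CPM (log2 fold change 0.18 ± 0.35 SE; edgeR adjusted p = 0.889). Gar1, another core protein, had a log2 fold change of 0.05 ± 0.45 (SE), which turned to -0.12 with the library number as a block. Among 12 other snoRNP genes, mostly assembly factors, 0 passed and 6 were positive. Pih1d1 (log2 fold change 0.30, edgeR adjusted p = 0.602) and Ruvbl1 (0.37, adjusted p = 0.694), both of the assembly chaperone complex, had the smallest p-values.

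Of the 10 assembly factors of the small subunit, 7 had negative log2 fold changes, the median was -0.13, and 0 passed. Utp20 (ENSMUSG00000004356, chr10:88746607-88826804, minus strand, GRCm38), a large scaffold protein of the early small-subunit particle, showed the lowest log2 fold change of the 40. It measured 75, 41.6 and 54.6 CPM in KLRG1-negative and 36.3, 23.7 and 24.7 CPM in KLRG1-positive libraries. All 3 KLRG1-positive libraries were below the lowest KLRG1-negative library. The mean was 57.1 ± 16.8 (SD, n = 3) against 28.2 ± 6.98 CPM (SD, n = 3), a log2 fold change of -1.02 ± 0.32 (SE; 95% interval -1.78 to -0.25, edgeR adjusted p = 0.186). With the library number as a block the adjusted p was 0.122 by edgeR and 0.00399 by DESeq2.

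Tsr1, which acts late in small-subunit maturation, was at 78.5, 42.7 and 50.4 CPM against 41.4, 26.8 and 37.9 CPM. The groups did not overlap, by a margin of 42.7 over 41.4 CPM, and the log2 fold change was -0.69 ± 0.32 (SE; edgeR adjusted p = 0.375). In the deposited gene models, 32.3% of the exon bases of Tsr1 lie over Srr on the opposite strand. Since the counting ignored strand and left out ambiguous reads, reads that fall on both genes enter neither count. Wdr43, a subunit of the early processing complex and the most abundant of this class by CPM, was at 229, 137 and 249 CPM against 196, 174 and 200 CPM (log2 fold change -0.11 ± 0.26 SE; edgeR adjusted p = 0.911). Its KLRG1-positive libraries lay wholly inside the range of the KLRG1-negative ones.

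The remaining 7 small-subunit factors had log2 fold changes from -0.58 for Rrp12, which takes part in export of the precursors, to 0.24 for the early factor Nop14. Between them lay Heatr1 (-0.27), which links polymerase I transcription to processing, the export-stage factor Ltv1 (-0.14), Rrp9 (-0.05), a protein of the snoRNP that guides early cleavage, Noc4l (0.00), partner of Nop14, and Rcl1 (0.16), which takes part in precursor cleavage. Of 38 other small-subunit genes tested, 0 passed, 16 were positive and 22 negative, and the median was -0.04. Nat10, an RNA acetyltransferase (log2 fold change -0.46, edgeR adjusted p = 0.431), and Utp3 (-0.40, adjusted p = 0.471) had the smallest p-values.

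Of the 9 assembly factors of the large subunit, 6 had positive log2 fold changes, where 46.5% of all genes tested did, the median was 0.13, and 0 passed. The 3 negative ones were Ppan, Nop2 and Wdr74. Ppan (ENSMUSG00000004100, chr9:20888175-20892178, plus strand, GRCm38), a factor of the early large-subunit particle, had the smallest p of all 40. It measured 83.3, 66.6 and 79.4 CPM in KLRG1-negative and 45.7, 37.1 and 50.7 CPM in KLRG1-positive libraries. The groups were well apart, with the lowest KLRG1-negative library at 66.6 and the highest KLRG1-positive library at 50.7 CPM. The mean was 76.4 ± 8.73 (SD, n = 3) against 44.5 ± 6.90 CPM (SD, n = 3), and the log2 fold change was -0.78 ± 0.22 (SE; 95% interval -1.30 to -0.26). The adjusted p was 0.142 by edgeR and 0.0112 by DESeq2, so the call for Ppan depends on the tool. Leaving out any library kept the log2 fold change between -0.78 and -0.65.

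Bop1, Pes1 and Wdr12 form the complex that processes the large-subunit precursor, and none of the 3 separated the sorts. Bop1 was at 151, 116 and 187 CPM against 162, 143 and 184 CPM (log2 fold change 0.11 ± 0.23 SE; edgeR adjusted p = 0.900). Wdr12 was at 42.8, 30.7 and 36.2 CPM against 40.3, 41.0 and 61.6 CPM (log2 fold change 0.38 ± 0.27 SE; edgeR adjusted p = 0.607). Pes1 had a log2 fold change of 0.13 ± 0.21 (SE), and its KLRG1-positive libraries differed by only 1.05-fold from lowest to highest, although 23.3% of its 50-base stretches recur in other transcripts. Nop2, an RNA methyltransferase, and the assembly factor Nop16 stood at -0.10 and 0.24. Wdr74 stood at -0.55, at only 1.52 to 2.98 CPM, and 90.7% of its exon bases are shared with another gene model on the same strand, so its level is uncertain.

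Rrs1, which brings ribosomal components to the early large-subunit particle, and Noc2l, a factor in the transport of that particle, varied far more than any other members, and both are described here because of those values. Rrs1 was at 1.56, 31.9 and 11.7 CPM in KLRG1-negative and 1.24, 30.5 and 40.8 CPM in KLRG1-positive libraries, a spread of 20.5-fold and 32.9-fold. Noc2l was at 27.5, 124 and 113 CPM against 9.63, 136 and 236 CPM, a spread of 4.50-fold and 24.5-fold. In both genes the libraries numbered 1 were the lowest of their sort, by at least 4.12-fold for Noc2l and 7.53-fold for Rrs1 against the lowest of the other 4. Of the exon bases of Noc2l, 20.9% lie over Samd11 on the opposite strand. Their log2 fold changes, 0.68 ± 1.34 and 0.53 ± 1.06 (SE), carry little weight beside this spread. Both libraries numbered 1 lay below 0.5 of the lowest of the other 4 in 5% of members and in 2.86% of all genes tested. For the libraries numbered 2 and 3 this held for 0 members, against 0.816% and 0.974%.

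Of 42 other large-subunit genes tested, 0 passed, with 14 positive and 28 negative and a median of -0.07. Mdn1, the large ATPase that strips assembly factors from the particle, had the smallest p (log2 fold change -0.60, edgeR adjusted p = 0.411), followed by Sdad1 (-0.48, adjusted p = 0.436). Over all 105 other ribosome biogenesis genes tested, 0 were called in either direction, 0 had an unadjusted p under 0.05 in either direction, 43 were positive, and the median was -0.04. Their groups did not overlap for 3 genes higher and 4 genes lower, where 9.46% and 15.2% of all genes tested did not overlap.

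The 3 cap-binding factors differed in sign, and 0 passed. Eif4a1, the RNA helicase of the cap complex, was at 49.3, 51.3 and 54.4 CPM in KLRG1-negative and 40.8, 30.5 and 42.0 CPM in KLRG1-positive libraries, without overlap (log2 fold change -0.45 ± 0.22 SE; edgeR adjusted p = 0.414). Eif4e, which holds the cap, was at 73.9, 54.1 and 73.7 CPM against 94.4, 56.0 and 102 CPM (log2 fold change 0.32 ± 0.29 SE; edgeR adjusted p = 0.703). Eif4ebp1, the inhibitor that mTORC1 releases from Eif4e, was at 36.2, 36.6 and 58.4 CPM against 43.2, 44.3 and 79.0 CPM (log2 fold change 0.34 ± 0.35 SE; edgeR adjusted p = 0.747). Eif4e and Eif4ebp1 were higher in the KLRG1-positive library of each number, and in both the groups overlapped. Eif4a1 shares 28.4% of its 50-base stretches with other transcripts, processed pseudogenes among them, so its level may be understated.

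In the wider cap-binding and mTORC1 list, 0 of 20 genes tested passed with edgeR, and 1 was higher and 2 lower at an unadjusted p under 0.05. Eif4a2, the paralog of Eif4a1, was at 180, 162 and 173 CPM in KLRG1-negative and 105, 106 and 89.3 CPM in KLRG1-positive libraries. The spread inside each sort was small and the groups were far apart. The log2 fold change of -0.78 ± 0.16 (SE), however, had an adjusted p of 0.0787 by edgeR and 0.000763 by DESeq2. Eif4e3, a divergent cap-binding relative of Eif4e, was at 34.3, 43.9 and 36.0 CPM against 62.0, 71.2 and 60.2 CPM (log2 fold change 0.76 ± 0.21 SE; adjusted p = 0.141 by edgeR and 0.00981 by DESeq2).

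Across all 40 members the groups failed to overlap in 4, all lower in KLRG1-positive cells: Utp20, Tsr1, Ppan and Eif4a1. This is 10% of the set, against 15.2% of all genes tested, and 0 members were higher without overlap, against 9.46%. Compared number by number, 12 members (30%) were lower in the KLRG1-positive library of all 3 numbers, against 25.1% of all genes tested, and 3 members (7.5%), Nop16, Eif4e and Eif4ebp1, were higher in all 3, against 21.7%. The count of lower members is near the background in both readings.

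The levels of many members varied with the number that the labels give each library, and libraries of the same number resembled each other across the sorts. Both libraries numbered 2 lay below the other 4 in 18 of the 40 members (45%), against 10.5% of all genes tested, and in 0 members above them, against 9.44%. Both libraries numbered 3 lay above the other 4 in 9 members (22.5%), against 5.86%, and below them in 2 (5%), against 6.09%. For the libraries numbered 1 the counts were 3 below (7.5%), against 10.8%, and 1 above (2.5%), against 8.55%. Within each sort, library 2 was the lowest of the 3 for 29 of 40 members, where it was the lowest for 35.9% of all genes in KLRG1-negative and 36% in KLRG1-positive cells. Summed over the 40 members, the level was 3891, 2935 and 4472 CPM in KLRG1-negative libraries 1, 2 and 3, and 3437, 2851 and 4324 CPM in KLRG1-positive libraries 1, 2 and 3. The same-numbered libraries of the 2 sorts were thus close to each other, and both numbered 2 lay below the remaining 4.

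A term for the library number in edgeR, added after these values were seen, called 0 of 15197 genes and 0 of 40 members at an adjusted p under 0.05. At an unadjusted p under 0.05 it picked 14 members (35%), against 11.4% of all genes tested. Heatr1, Rrp12, Nop58, Gnl3 and Ncl, with unadjusted p-values from 0.00919 to 0.0191 in this edgeR fit, were among them, and Rrs1 had the smallest at 0.00789 (adjusted p = 0.413). Heatr1 shows the pattern plainly, at 130, 51.3 and 125 CPM in KLRG1-negative and 113, 52.2 and 88.3 CPM in KLRG1-positive libraries: the library numbered 2 was about equal in both sorts and below all others. Both libraries numbered 2 also had the largest share of alignments outside gene models, 10.4% and 8.30%, where the other 4 ranged from 4.76% to 7.89%. Whether this share has a part in the pattern was not tested.

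**Figure D3:**
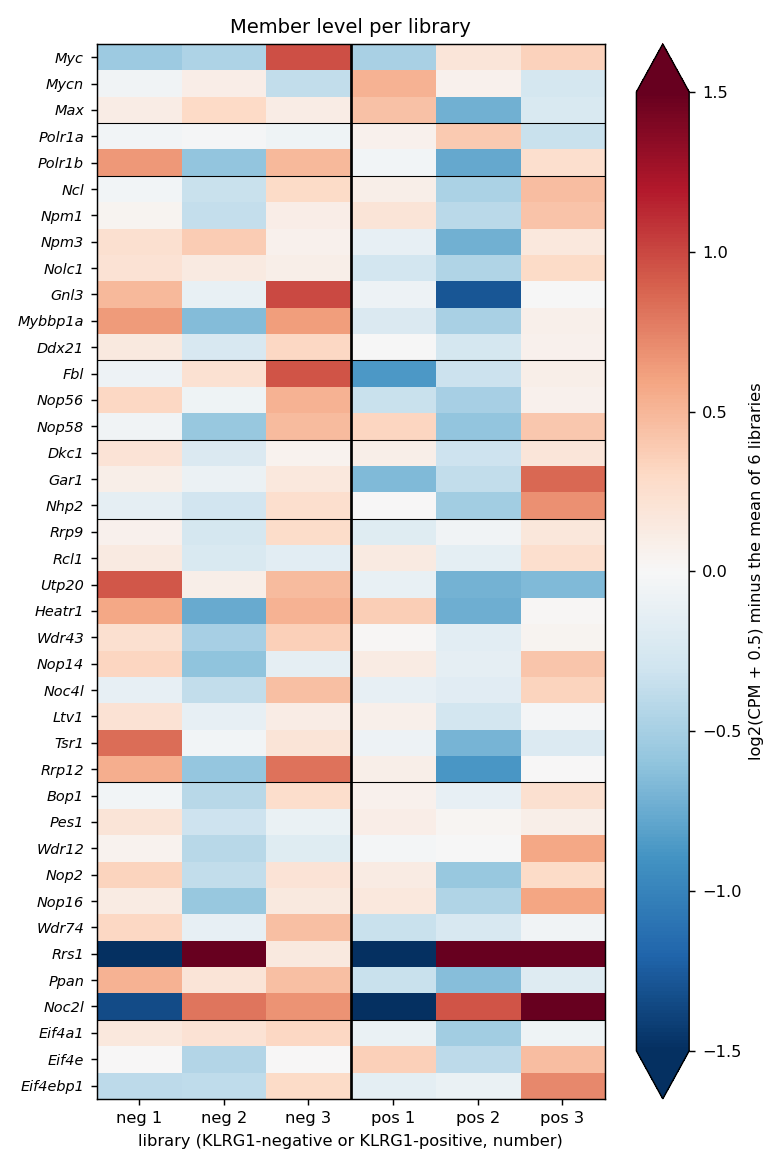
Level of each member (rows, grouped by role) in each library (columns), as log2(CPM + 0.5) minus the gene's mean over the 6 libraries, with colours capped at 1.5 in either direction. The columns numbered 2 are the bluest of both sorts, with member medians of -0.27 in KLRG1-negative and -0.43 in KLRG1-positive cells, and Rrs1 and Noc2l are lowest in both columns numbered 1.

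Cell cycle genes, listed as a readout of division, had larger estimates than the ribosome biogenesis genes. Estimates were above 0 for 26 of the 26 cell cycle genes listed here (median 1.15), against 46.5% of all genes tested. However, 0 of the 26 passed over all genes, where 0.125% were called higher. By edgeR 6 were higher at an unadjusted p under 0.05, against 4.19% of all genes tested. The groups did not overlap for 1 of the 26, higher in KLRG1-positive cells, against 9.46%. Tyms, which makes thymidylate for DNA synthesis, was at 35.2, 46.7 and 52.6 CPM in KLRG1-negative and 138, 64.8 and 146 CPM in KLRG1-positive libraries (log2 fold change 1.37 ± 0.36 SE; edgeR adjusted p = 0.127). Bub1b, a kinase of the spindle checkpoint, had a log2 fold change of 1.67 ± 0.62 (SE; edgeR adjusted p = 0.261). Summed over the 26 genes, the level was 2826, 1997 and 3694 CPM in KLRG1-negative and 6798, 2290 and 7478 CPM in KLRG1-positive libraries. Here too the library numbered 2 was the lowest of each sort, and KLRG1-positive library 2 lay inside the range of the KLRG1-negative libraries. The difference between the 2 gene groups was not tested.

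**Figure D4:**
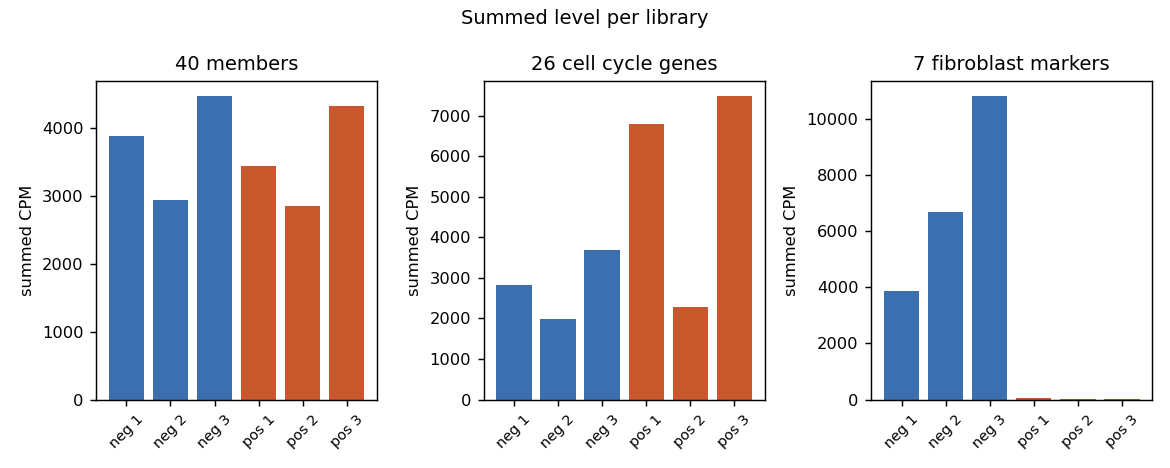
Summed level per library, in CPM, of the 40 members, of 26 cell cycle genes and of 7 fibroblast markers; each bar is 1 library and every axis starts at 0. The members' sums overlap between the sorts (2935 to 4472 against 2851 to 4324 CPM), whereas fibroblast markers reach at most 47.6 CPM in KLRG1-positive libraries.

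Known Myc targets outside ribosome biogenesis were listed for comparison. Of the 30, 20 were positive, the median was 0.11, and 0 passed. Ccnd2, encoding cyclin D2, had the smallest p, at 621, 499 and 759 CPM in KLRG1-negative and 385, 442 and 421 CPM in KLRG1-positive libraries (log2 fold change -0.59 ± 0.20 SE; edgeR adjusted p = 0.219). Prmt5, an arginine methyltransferase, was at 125, 101 and 103 CPM against 167, 145 and 157 CPM. Its log2 fold change was 0.51 ± 0.17 (SE, edgeR adjusted p = 0.224). The groups did not overlap for either gene, and they differed in opposite directions.

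**Figure D5:**
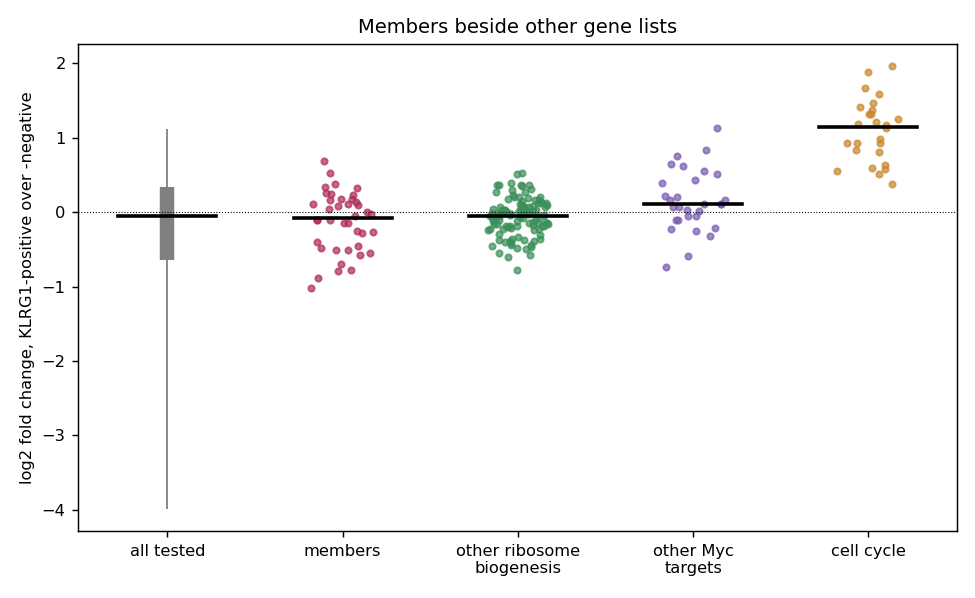
Log2 fold changes, KLRG1-positive over KLRG1-negative (y axis), of the 40 members, 105 other ribosome biogenesis genes, 30 other Myc targets and 26 cell cycle genes; each point is 1 gene and the black line the median. For all 15197 genes tested the thick bar spans 25% to 75% and the thin line 5% to 95% of genes. The medians of the members and of the other ribosome biogenesis genes (-0.08 and -0.04) lie beside that of all genes (-0.05), and that of the cell cycle genes is 1.15.

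In GENCODE release M21, 9 of the 40 members hold genes of small nucleolar RNAs (snoRNAs) within their own gene models: Ncl, Gnl3, Nop56, Nop58, Dkc1, Wdr43, Tsr1, Ppan and Eif4a1. Of these 9, 7 had negative log2 fold changes (median -0.45) and 3 were lower without overlap (33.3%). Of the other 31 members, 15 were negative (median 0.00) and 1 was lower without overlap (3.23%). Among 217 other protein-coding genes that hold snoRNA genes, 46.1% were negative, the median was 0.04 and 8.76% were lower without overlap. Over all genes tested, 53.5% were negative and 15.2% were lower without overlap. The split was made with the values in view, so it describes these members only.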

How the data were processed

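The deposited values are raw read counts. Per the file headers, the authors ran featureCounts (Subread 1.5.2) on Ensembl release 90 genes of build GRCm38, ignoring strand and counting no read that was multi-mapping or ambiguous. The submitters' processing notes also name bcl2fastq and STAR 2.4.1d. Libraries were made from total RNA with a SMARTer low-input kit and Nextera XT, per the labels' protocols. Gene length is another column of the deposited table and entered no test. Coordinates are those of that table or of RefSeq.

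Counts were fitted for all genes with edgeR 4.0.16 (R 4.3.3; quasi-likelihood, robust, TMM, filterByExpr), with Benjamini-Hochberg adjustment over 15197 genes and a threshold of 0.05. CPM use TMM-scaled totals. Multi-mapping alignments made up 26.3% to 32.3% of a library. Alternatives were DESeq2 1.42.0, other scalings and filters, a replicate block and leaving out libraries.

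Same-numbered libraries deviated together from their group means (correlations across genes 0.382, 0.338 and 0.188 for numbers 1, 2 and 3), and 6 of 6 libraries correlated best with their own number. The numbers were therefore read as pairing the samples, a reading from the data and not from the labels. Deviations from the mean of 3 libraries cancel within a sort, so these correlations depend on each other. The 6 matches are thus not 6 separate agreements. The main fit, with its intervals and p-values, did not use this pairing. It entered only where the library number is named as a block or as a term.

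Members and gene lists were chosen with earlier results of these data known. Per-library values are given for Myc, Mycn and Max and, in each role, for the 2 members with the smallest p and the most abundant one, and from other lists the 2 genes with the smallest p are named. Heatr1, Rrs1, Noc2l and Eif4ebp1 were added after their values were seen, as were the comparisons by library number, by promoter motif match and by snoRNA content. In the pathway lists 198 of 199 symbols matched.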

Additional observations from a re-analysis of the deposited data

How the results depend on the processing

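Of 640 member values under the alternatives, 593 kept their sign and their side of the threshold, 43 changed sign, 4 were called only under an alternative and 0 were lost. The members called stayed at 0 higher and 0 lower in every edgeR fit, with 2 members lower at an unadjusted p under 0.05 as reported, 6 with the replicate block and 0 to 3 when libraries were left out. DESeq2 called 1 member lower (Ppan), and with a replicate block 3 (Ppan, Gnl3 and Utp20). Over all genes, 19 higher and 184 lower became 346 and 1377 with DESeq2, 37 and 282 without a low-count filter, 48 and 351 with a stricter one, and 609 and 1697 with a replicate block in DESeq2. With the replicate block in edgeR, 0 and 53 were called (1025 and 1876 at an unadjusted p under 0.05), and this block changed no call of a member. Leaving out libraries gave 0 to 5 higher and 0 to 168 lower (406 to 1048 and 1159 to 1779 at an unadjusted p under 0.05). In particular 0 of either were called without KLRG1-negative library 3, without KLRG1-positive library 2, or without both libraries numbered 2 or 3, and 0 higher and 4 or 1 lower without KLRG1-negative library 2 or KLRG1-positive library 3.

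The sign turned for 13 members. Noc4l was -0.017 with library totals only and -0.014 with the stricter filter. Without a filter Myc was 0.017, Dkc1 0.076, Rrp9 0.049 and Nop2 0.00011. With the block in edgeR Myc was 0.029, Gar1 -0.12 and Noc2l -0.074, and in DESeq2 0.031, -0.11 and -0.080. Leaving out libraries moved Myc between -0.36 and 0.57, Max between -0.67 and 0.14, Polr1a between -0.064 and 0.40, Ncl between -0.029 and 0.31, Nop58 between -0.044 and 0.42, Dkc1 between -0.052 and 0.12, Gar1 between -0.46 and 0.34, Nhp2 between -0.067 and 0.44, Rrp9 between -0.081 and 0.090, Wdr43 between -0.23 and 0.094, Noc4l between -0.063 and 0.28, Nop2 between -0.19 and 0.13 and Noc2l between -0.16 and 1.09. The median of the members ranged from -0.10 with library totals only to 0.08 without KLRG1-negative library 3. The causes were not tested. With 3 libraries per sort, the number of libraries limits the precision. Mycn, Npm3, Wdr74, Fbl, Rrs1 and Noc2l were below 10 CPM in at least 1 library, and with the block the SE of Rrs1 went from 1.34 to 0.55 and that of Noc2l from 1.06 to 0.56.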

Other observations

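Rrs1 and Noc2l were 2 of 97 tested genes for which both libraries numbered 1 lay below 0.25 of the lowest of the other 4. The most abundant of these 97 were Tnfaip3, Fos, Dusp1 and Egr1, genes known for their rapid induction by stimulation. They are named here after their values were seen. Tnfaip3, an inhibitor of NF-kB signalling, was at 288, 1791 and 1494 CPM in KLRG1-negative libraries 1, 2 and 3 and at 285, 3509 and 1860 CPM in KLRG1-positive libraries 1, 2 and 3. Dusp1, a phosphatase of MAP kinases, was at 68.4, 1886 and 1115 CPM against 24.1, 2755 and 1903 CPM. Fos was at 81.8, 2166 and 2044 CPM against 223, 2147 and 1623 CPM. Odc1, the ornithine decarboxylase gene and a known Myc target, belonged to the same 97, at 2.06, 46.3 and 12.9 CPM in KLRG1-negative and 2.65, 48.4 and 53.0 CPM in KLRG1-positive libraries. Myc was not among the 97, although its libraries numbered 1 were also the lowest of their sort, at 101 and 105 CPM. The labels do not say how libraries of one number differ from the rest, and no explanation of this pattern was tested. Epithelial markers (8 genes) summed to 602, 115 and 102 CPM in KLRG1-negative libraries 1, 2 and 3. In KLRG1-positive libraries 1, 2 and 3 they summed to 533, 15.9 and 15.8 CPM. This list was picked after its values were seen, and its part in the pattern was not tested.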
